A study of Mus musculus with 3 samples.

Results

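Nucleosome positions were examined at the 7 heme synthesis genes Alas2, Alad, Uros, Urod, Cpox, Ppox and Fech, chosen by name from 21523 protein-coding genes of the autosomes and chromosome X. The cells were erythroblasts, the nucleated precursors of red cells, taken from mouse fetal liver without the later erythroid surface marker Ter119 and grown with serum, albumin, insulin and 2 U/ml erythropoietin, the hormone on which red cell precursors depend. Chromatin was taken on days 0, 1 and 2 of culture and cut with micrococcal nuclease, which digests the linker DNA between nucleosomes. The days make up the only groups, with 1 library each, and cells of 6 fetuses were used, per the labels. No strain, sex, age or genotype is given in the labels, and position lists do not measure expression, so cell identity was not checked. With 1 library per day no test between days was made, and each value describes that library.

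Heme is the iron-holding ring of hemoglobin, and erythroblasts make it in large amounts as they fill with globin. Its synthesis begins in the mitochondrion, passes through the cytosol and ends in the mitochondrion again. Alas2 is the erythroid form of the enzyme for the first, committed step, the joining of glycine and succinyl-CoA to aminolevulinate. Alad joins a pair of aminolevulinate molecules to porphobilinogen. Uros closes the ring of uroporphyrinogen III, Urod removes carboxyl groups to give coproporphyrinogen, Cpox and Ppox oxidise it to protoporphyrin, and Fech, ferrochelatase, inserts the iron. Nucleosomes at a gene's start can cover the sequences that erythroid factors such as GATA1 bind, and active starts commonly lie in a stretch without them.

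The lists held 3734809, 2998522 and 4470560 positions on the autosomes and X on days 0, 1 and 2, each 140 bp wide. The summit value is the smoothed and scaled coverage at a position's centre, as deposited by the authors. The number of reads behind each list is not stated in the sources used here. Of the summit values 98.6%, 97.5% and 98.7% lie within 0.01 of a whole multiple of 0.762, 0.324 and 0.626, and if 1 step is 1 unit of coverage, day 1 was 2.36 times and day 2 was 1.22 times as deep as day 0. Chromosome X, which carries Alas2, had a summed summit value per bp of 0.149, 0.129 and 0.251 times the autosome mean.

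The 250 bases before the listed start are shown for 5 genes because positions covered or spared them in different ways (RefSeq, build GRCm38.p6, equal to mm10 in coordinates). They are written 5′ to 3′ on the gene's strand. In Alas2, Uros and Cpox capitals mark the GATA letters (AGATAA and TGATAA, and likewise AGATAG and TGATAG) and the CACC letters CCACCC, on either strand. In Alad and Ppox capitals mark CCAAT and the GC box GGGCGG, on either strand. Neighbouring or overlapping matches run together.
Alas2 (chrX:150547167-150547416, + strand): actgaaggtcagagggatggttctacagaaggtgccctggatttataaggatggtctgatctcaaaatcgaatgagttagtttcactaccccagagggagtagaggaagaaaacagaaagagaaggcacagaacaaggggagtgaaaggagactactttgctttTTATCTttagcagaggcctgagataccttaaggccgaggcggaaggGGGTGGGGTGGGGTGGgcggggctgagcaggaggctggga
Alad (chr4:62520064-62520313, - strand): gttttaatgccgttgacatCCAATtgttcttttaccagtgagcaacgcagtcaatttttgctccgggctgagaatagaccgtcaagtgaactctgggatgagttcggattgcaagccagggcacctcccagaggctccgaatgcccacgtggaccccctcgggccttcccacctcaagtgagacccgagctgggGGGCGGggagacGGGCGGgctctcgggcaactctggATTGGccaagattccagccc
Uros, internal start (chr7:133702501-133702750, - strand): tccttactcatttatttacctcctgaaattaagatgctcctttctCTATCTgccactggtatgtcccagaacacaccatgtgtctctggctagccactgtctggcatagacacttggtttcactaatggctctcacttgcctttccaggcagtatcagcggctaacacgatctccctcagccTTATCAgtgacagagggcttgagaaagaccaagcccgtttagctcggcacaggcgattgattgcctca
Cpox (chr16:58669958-58670207, + strand): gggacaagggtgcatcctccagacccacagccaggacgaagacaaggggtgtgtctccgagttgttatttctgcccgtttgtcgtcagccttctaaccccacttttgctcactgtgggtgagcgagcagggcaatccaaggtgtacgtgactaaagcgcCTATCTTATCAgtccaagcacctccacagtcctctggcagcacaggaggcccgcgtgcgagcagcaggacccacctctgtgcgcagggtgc
Ppox (chr1:171281187-171281436, - strand): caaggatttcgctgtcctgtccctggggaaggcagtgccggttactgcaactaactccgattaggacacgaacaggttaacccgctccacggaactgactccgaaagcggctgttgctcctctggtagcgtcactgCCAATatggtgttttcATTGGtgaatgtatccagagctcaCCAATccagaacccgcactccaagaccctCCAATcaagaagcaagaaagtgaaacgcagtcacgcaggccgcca
GATA letters were found in 3 of the 8 listed windows of the enzyme genes, those of Alas2, Cpox and the internal start of Uros, and in 26.5% of all 32619 windows. In Cpox a pair of GATA matches overlap by 1 base, 91 and 86 bases before the start. In Alas2 the GATA match began 86 bases before the start and was followed by a run of 3 overlapping CACC matches, letters that 28.2% of all windows hold. Ppox held 4 CCAAT matches within the 114 bases before its start, and 34.0% of all windows hold at least 1. GC box letters stood in 33.0% of all windows and TATAA in 22.9%, among the enzyme genes in the windows of 4 genes and of Alas2 alone. A match of letters is a description and not a bound site.

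No position of any day overlapped the 250 bases before the starts of Alas2 and Cpox. Of all windows, 38.6%, 41.5% and 29.7% had none on days 0, 1 and 2, each day taken alone. The share with none on every day was not computed, nor that of chromosome X alone. At Cpox the GATA match nearer the start lay 256.5, 266.5 and 276.5 bp from the nearest centre, and at Alas2 the GATA match lay 352.5, 830.5 and 1147.5 bp away. At the internal start of Uros the GATA match 205 bases before the start lay 143.5, 3.5 and 175.5 bp from the nearest centre, so that it was inside a position on day 1 alone, and the match 68 bases before it was inside none. At Alad no position overlapped the window on day 0, while 2 did on day 1 and 2 on day 2, covering 85.6% and 56.4% of its bases. At Ppox the 4 CCAAT matches lay outside positions on every day, and 1 position with its centre 285, 275 and 280 bp before the start reached 14.4%, 18.4% and 16.4% of the window. Urod had 25.2%, 0% and 34% of its window inside a position, and the first start of Uros 56.4%, 50% and 56.4%.

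At Cpox a row of positions began inside the start on each day, and its summit values were highest on day 1. Cpox lies on chromosome 16 from 58670208 to 58680391, with no other protein-coding gene within 5 kb. Upstream, the nearest centre lay 2517, 1357 and 1207 bp before the start on days 0, 1 and 2. Inside the gene the first centre lay at 173, 183 and 193 bp, within 20 bp on all days. On day 0 it was followed by centres at 453, 593 and 913 bp, with summit values of 6.09, 5.98, 10.0 and 9.91 in order of distance. On day 1 centres at 183, 323, 443, 553 and 683 bp had summit values of 14.8, 17.7, 15.9, 16.1 and 15.2, and a sixth at 853 bp had 7.44. On day 2 centres at 193, 303, 403, 633 and 783 bp had 9.87, 7.41, 16.9, 14.5 and 9.38. The first 5 values of day 1 lay above the 4 values of day 0, and those of day 2 overlapped with both. With a width of 140 bp, the positions at 323, 443, 553 and 683 bp on day 1 overlap their neighbours. So do those at 193, 303 and 403 bp on day 2. The row is thus a list of called positions, and whether they were held on the same molecules is not known. Of the positions in the first 1 kb of Cpox, 3 of 4, 4 of 6 and 4 of 5 had a summit value off the library's coverage step, against 1.44%, 2.48% and 1.25% in the libraries. Without positions off the step, a setting chosen after seeing the data, the log2 change of the summed summit value over Cpox with 5 kb on each side was 1.26 for day 1 over day 0, and 1.29 with all positions. That value covers the whole span, which held 62 positions on day 1, and not the row inside the start alone. Most of the row lay off the step, and its summit values were not compared between days without such positions.

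**Figure D1:**
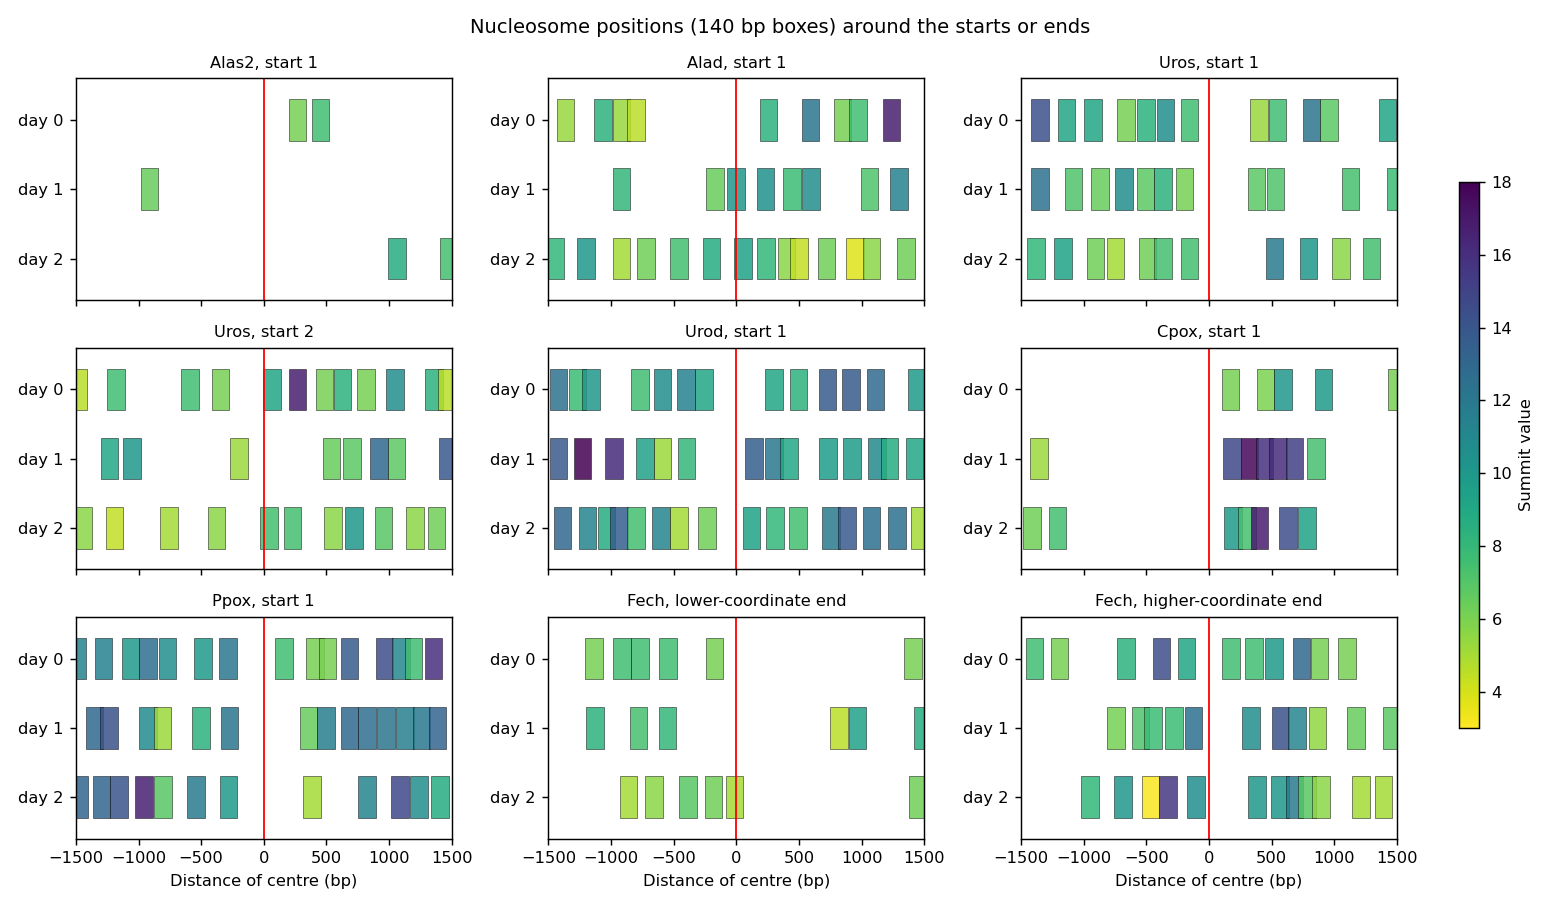
Nucleosome positions within 1500 bp of the listed starts (both ends for Fech, along the chromosome), with distance in bp on the x axis, days 0 to 2 from top to bottom, each box 140 bp wide and coloured by summit value; the red line is the start or end. Alas2 and Cpox had no position within 250 bp upstream on any day, and the boxes inside the Cpox start were darkest on day 1.

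At the start of Alas2 the positions seen inside the gene on day 0 had no counterpart on days 1 and 2. Alas2 lies on chromosome X from 150547417 to 150570622, inside the annotated extent of Apex2 (150426974 to 150588206). On day 0 centres lay at 269 and 454 bp inside the gene, with summit values of 6.10 and 7.62. On day 1 the nearest centres were 914 bp upstream and 5814 bp downstream, a stretch of 6728 bp, which was the longest stretch without a centre in its span on that day. On day 2 they were 1506 bp upstream and 1064 bp downstream. The stretch across the start was thus 2730, 6728 and 2570 bp, longer than that of 83.7%, 87.5% and 91.2% of the 17274 genes with a listed start. That rank spans the autosomes and X, and a rank among X genes alone was not computed. The summed summit value per bp of X was 0.149, 0.129 and 0.251 times the autosome mean, and its part in the stretch was not tested. Within 500 bp of both gene ends Alas2 had 4, 1 and 0 positions. Of the 963 genes of chromosome X, 44.5%, 47.5% and 24.1% had no position in these windows, so windows without a position were frequent on X. With 4 positions on day 0 and 0 on day 2, the exact 95% interval of the ratio scaled to the lists runs from 0 to 1.28, which includes 1 and covers counting error only.

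Over its whole span Alas2 had more positions on day 2, whose list was also the longest. With 5 kb on each side it held 26, 24 and 48 positions on days 0, 1 and 2, with mean summit values of 6.27, 5.81 and 6.11. The day 2 list held 1.19 times as many autosome positions as that of day 0, and 1.48 times as many as that of day 1. Scaled by list size, the position ratio of day 2 over day 0 was 1.55 (exact 95% interval 0.945 to 2.61). That of day 2 over day 1 was 1.35 (0.813 to 2.31). Both intervals include 1 and cover counting error only. Relative occupancy sets the summed summit value per bp of a window against the average over all autosomes, and it was 0.410, 0.460 and 0.725. The log2 change of 0.82 on day 2 over day 0 was above that of 90.8% of the 19744 genes holding 3 or more positions every day. Scaled to chromosome X, whose density relative to the autosomes was higher on day 2, the change was 0.07, and that of day 2 over day 1 turned to -0.30 in place of 0.66. Within X, Alas2 stood at 2.75, 3.56 and 2.89 times the chromosome mean and above 71.3%, 78.0% and 82.9% of X genes. The 100 kb on each side had 0.318, 0.285 and 0.440, so the span was 1.29, 1.62 and 1.65 times its surroundings. None of the 26 centres of day 0 had a centre of day 2 within 20 bp, and 2 had one on day 1.

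**Figure D2:**
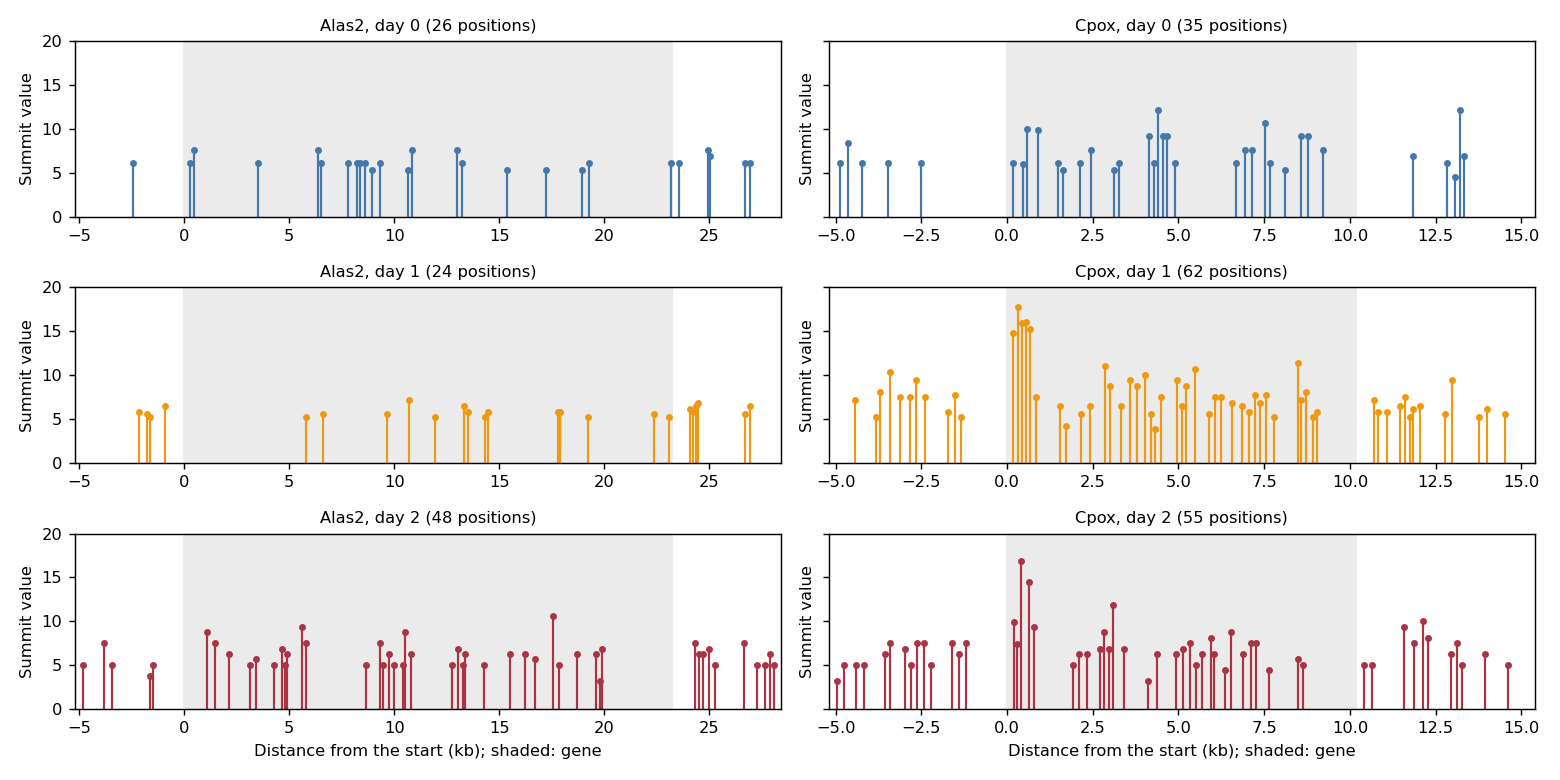
Summit value (y axis) of each position against distance from the start in kb (x axis) over Alas2 (left) and Cpox (right) with 5 kb on each side, days 0 to 2 from top to bottom, the gene shaded. Alas2 had 26, 24 and 48 positions and Cpox 35, 62 and 55.

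Among the enzymes, Cpox alone changed by 2 times or more over the whole span. With 5 kb on each side it held 35, 62 and 55 positions on days 0, 1 and 2, with a relative occupancy of 1.07, 2.63 and 1.55. The log2 change of 1.29 on day 1 over day 0 lay above that of 99.1% of genes. By the size rule of 2 times, 1 of 7 enzyme genes was higher on day 1 than on day 0, where 2.00% of the 19744 genes holding 3 or more positions every day were, and 0 were lower, where 7.02% were. The position ratio after scaling by list size was 2.20, and its exact 95% interval, for counting error alone, was 1.43 to 3.44. The number of positions was higher on day 1 than on day 0 in the upstream flank (5, 11 and 14 on days 0, 1 and 2), in the gene (25, 38 and 30) and in the downstream flank (5, 13 and 11). The surroundings of 100 kb on each side were at 0.884, 1.19 and 1.16. Day 2 against day 1 gave -0.76 and day 2 against day 0 gave 0.53, neither past the size rule.

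Day 1 had the highest span occupancy at all enzymes but Alas2. Alad (chromosome 4, 62505984 to 62520063) had 2.98, 3.89 and 2.64 on days 0, 1 and 2, with 100, 103 and 106 positions. Uros (chromosome 7, 133686142 to 133710467) had 2.75, 3.48 and 2.21, with 132, 136 and 127 positions. Urod (chromosome 4, 116989965 to 116994436) had 3.67, 4.69 and 3.38, with 66, 69 and 68 positions. The day 1 list held 0.804 times as many autosome positions as the day 0 list, inside and outside genes, while these 3 genes held slightly more on day 1 than on day 0. The median number per span on days 0 and 1 was 79 and 73 for all genes. It was 118 and 121.5 for the 32 other iron and heme genes described below. Ppox (chromosome 1, 171276991 to 171281193) had 5.13, 6.51 and 4.21, with 78, 73 and 72 positions. Fech (chromosome 18, 64456542 to 64489098) had 1.77, 2.44 and 1.90, with 119, 128 and 135 positions. All 7 log2 changes of day 1 over day 0 were above 0, between 0.16 and 1.29, with a median of 0.36 against 0.16 for all genes, of which 12355 of 19744 were above 0. For day 2 over day 1 the median was -0.56 against -0.26, with 0 enzymes past the size rule (10.4% of genes were higher and 0.643% lower). For day 2 over day 0 it was -0.12 against -0.14, again with 0 enzymes past the rule (6.93% higher and 1.92% lower).

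The order of the levels was led by Ppox on every day. Ppox stood above 99.6%, 98.6% and 99.6% of all genes on days 0, 1 and 2, and Urod above 87.3%, 87.1% and 93.7%. Ppox lies in a gene-dense stretch, with B4galt3 96 bp and Usp21 756 bp from its ends, and its surroundings of 100 kb were at 3.69, 4.63 and 3.11. The span of Ppox was 1.39, 1.41 and 1.36 times these surroundings, a smaller ratio than that of Urod (1.58, 2.03 and 1.92). Alad and Uros followed Urod on each day, then Fech and Cpox in changing order, and Alas2 was lowest. With 1 library per day no spread is known, so neighbours in this order such as Alad and Uros on day 0 cannot be separated. The median of the 7 genes was 2.75, 3.48 and 2.21, against 1.77, 1.83 and 1.61 for all genes. The 32 other iron and heme genes described below had 2.66, 3.90 and 2.55, so a level above all genes was not particular to the enzymes.

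**Figure D3:**
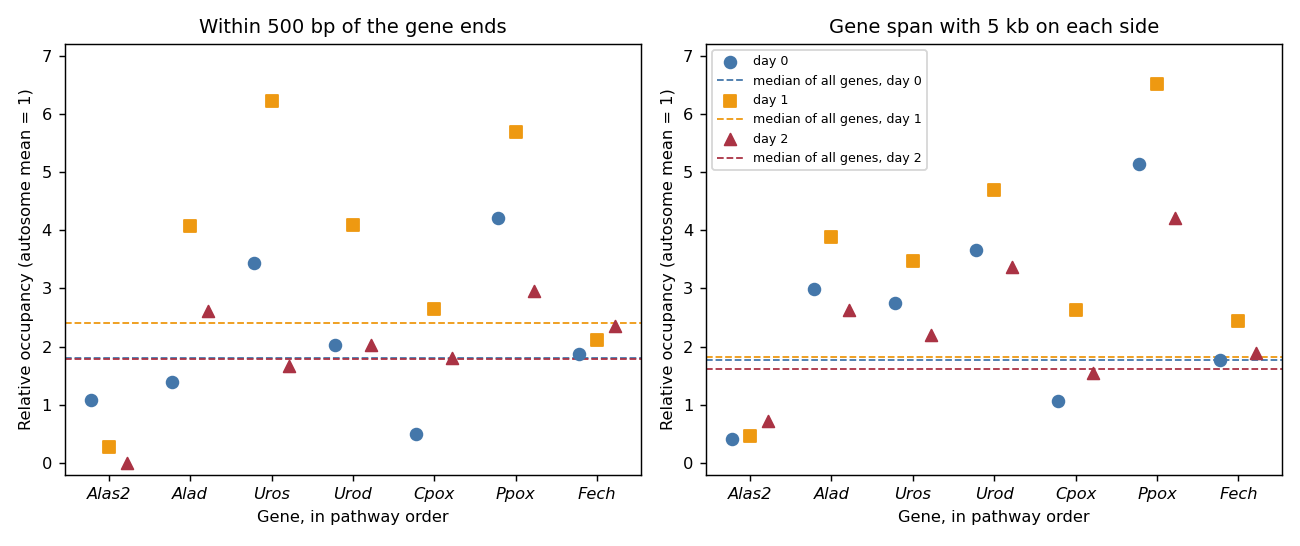
Relative occupancy (y axis, autosome mean of the library set to 1) of the 7 enzyme genes (x axis) on days 0, 1 and 2, within 500 bp of the gene ends (left) and over the span with 5 kb on each side (right); dashed lines are the medians of all genes. Ppox was highest and Alas2 lowest over the spans on all days, and day 1 lay above day 0 at all 7 spans.

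Summit values of 10 or more were frequent at Ppox and Urod and at most 1 per day at Alas2. At Ppox 45 of 78, 51 of 73 and 40 of 72 positions reached 10 on days 0, 1 and 2, and at Urod 30 of 66, 21 of 69 and 25 of 68. At Alas2 0 of 26, 0 of 24 and 1 of 48 did. Of the positions at Ppox 30.8%, 38.4% and 23.6% had a summit value off the coverage step, and the part of these in its level was not tested. Over all 7 genes the share of summit values of 10 or more was 26.6%, 25.5% and 21.1%. In the libraries it was 14.9%, 13.2% and 8.92%, over all positions of the autosomes and X, in gene spans or not. The strongest single position of the enzymes was 4525 bp upstream of Ppox on day 0, with a summit value of 23.6. Uros on day 1 had its strongest position 23394 bp downstream of the first start, beyond the stop end of the gene, with 19.3. Fech had its strongest, 18.8, on day 1, with its centre 17674 bp from the lower-coordinate end. The distance between neighbouring centres had a median of 155, 167.5 and 170 bp at Ppox and of 410, 785 and 380 bp at Alas2, against 255, 235 and 260 bp in the libraries.

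Within 500 bp of the gene ends Alad had more positions on days 1 and 2 than on day 0. It held 4, 9 and 9 positions on days 0, 1 and 2, with a relative occupancy of 1.40, 4.07 and 2.61. The start end alone held 1, 4 and 5 positions. On day 0 this was a centre 257 bp inside the gene, and the nearest upstream centre lay 803 bp away. On day 1 centres lay 170 and 3 bp upstream and 232 and 442 bp inside, and on day 2 they lay at -458 and -198 bp, outside the gene, and at 52, 237 and 400 bp inside. The stretch without a centre across the start was 1060, 235 and 250 bp, longer than that of 70.9%, 24.1% and 28.3% of genes. Hdhd3 and Pole3 lie 3784 and 3735 bp from Alad, within its flanks and outside these windows. At the listed second start of Alad, further inside the gene, the stretch was 1060, 235 and 185 bp. The log2 change in both windows was 1.54 for day 1 over day 0, above 96.3% of genes, -0.64 for day 2 over day 1 and 0.90 for day 2 over day 0. The position ratio of day 1 over day 0 was 2.80 scaled to the lists, with an exact 95% interval of 0.781 to 12.4 that includes 1 and covers counting error only.

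At Uros the day 2 value was the lowest, and the difference lay mostly at the stop end. The windows of Uros held 9, 10 and 6 positions on days 0, 1 and 2, with a relative occupancy of 3.45, 6.22 and 1.67. At the stop end there were 5, 5 and 1 positions, and the day 1 positions reached summit values of 15.5, 19.3 and 15.9, against a single position of 5.63 on day 2. At the start end there were 4, 5 and 5 positions with a relative occupancy of 3.61, 5.29 and 2.87. The start end is the outer edge of the annotated gene (133710467), while the first listed start is at 133709295, and Bccip overlaps Uros by 1135 bp here, so values at this end belong to both genes. The log2 change was 0.85 for day 1 over day 0, -1.90 for day 2 over day 1, above that of 0.915% of genes, and -1.05 for day 2 over day 0. The scaled position ratio of day 2 over day 1 was 0.406 (exact 95% interval 0.121 to 1.23, counting error only). At the first start the stretch without a centre was 555, 575 and 680 bp, and at the internal start 410, 738 and 420 bp.

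Urod had its highest level near the gene ends on day 1. Its windows held 6, 8 and 7 positions on days 0, 1 and 2 and had a relative occupancy of 2.04, 4.09 and 2.02. The log2 changes were 1.01 for day 1 over day 0, -1.01 for day 2 over day 1 and -0.01 for day 2 over day 0. The first centre inside the gene lay at 300, 142 and 122 bp and the nearest upstream at 258, 398 and 236 bp. The positions next to the start thus differed between days, while centres at 300, 302 and 307 bp lay within 20 bp of each other. The windows also hold positions at the ends of Zswim5 and Hectd3, each 860 bp from Urod.

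At Ppox the first centre inside the start lay further in on days 1 and 2 than on day 0. At the start end it held 4, 3 and 2 positions on days 0, 1 and 2, with a relative occupancy of 2.98, 2.96 and 1.22. The upstream centre was at 285, 275 and 280 bp, while the first inside the gene was at 160, 355 and 383 bp, so the stretch across the start was 445, 630 and 663 bp. It was longer than that of 44.1%, 58.6% and 69.2% of genes. At the stop end, 6, 7 and 5 positions gave 5.43, 8.42 and 4.69. The log2 changes in both windows were 0.44 for day 1 over day 0, -0.95 for day 2 over day 1 and -0.51 for day 2 over day 0. The scaled position ratio in both windows was 1.24 for day 1 over day 0 (exact 95% interval 0.464 to 3.33) and 0.589 for day 2 over day 0 (0.190 to 1.72), and both intervals include 1. The windows of B4galt3 and Usp21 overlap those of Ppox, so positions here also lie at their ends.

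The higher-coordinate end of Fech held the same number of positions on each day. It held 4, 4 and 4 positions on days 0, 1 and 2 with a relative occupancy of 3.24, 4.24 and 3.23, and the stretch across it was 355, 460 and 487 bp. The lower-coordinate end held 1, 0 and 3 positions. The first centre inside that end lay at 1409, 821 and 1444 bp, and the stretch across it was 1585, 1370 and 1460 bp. Fech had 5, 4 and 7 positions in both windows, with a relative occupancy of 1.88, 2.12 and 2.36 and log2 changes of 0.18 for day 1 over day 0, 0.15 for day 2 over day 1 and 0.33 for day 2 over day 0. Neither direction was stable. The change of day 2 over day 1 was -0.31 with windows of 1000 bp and -0.06 scaled to the own chromosome, and that of day 1 over day 0 was -0.23 scaled to the median of all genes, -0.35 without positions off the coverage step and -0.01 with each position counted once.

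Alad, Uros, Urod, Ppox and Fech held 3 or more positions near their ends every day, and Alas2 and Cpox did not. Cpox held 2, 3 and 5 positions, with a relative occupancy of 0.503, 2.65 and 1.81, and Alas2 4, 1 and 0, with 1.08, 0.283 and 0. By the size rule 2 of the 5 were higher on day 1 than on day 0 (Alad and Urod), where 16.2% of 14093 genes were higher and 1.30% lower. For day 2 over day 1, 2 of the 5 were lower (Uros and Urod), where 19.8% of genes were lower and 0.596% higher. For day 2 over day 0, 1 of the 5 was lower (Uros), where 6.51% of genes were lower and 4.23% higher. Urod passed the rule narrowly, and scaled to the median of all genes its log2 change was 0.60 for day 1 over day 0 and -0.59 for day 2 over day 1. With windows of 1000 bp the change of Alad for day 1 over day 0 was 0.79 and that of Uros for day 2 over day 0 was -0.46. Without positions off the coverage step Ppox had -1.82 for day 2 over day 1, past the rule, and -1.48 for day 2 over day 0, also past it. The 5 passed a filter on position number and do not stand for all 7.

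**Figure D4:**
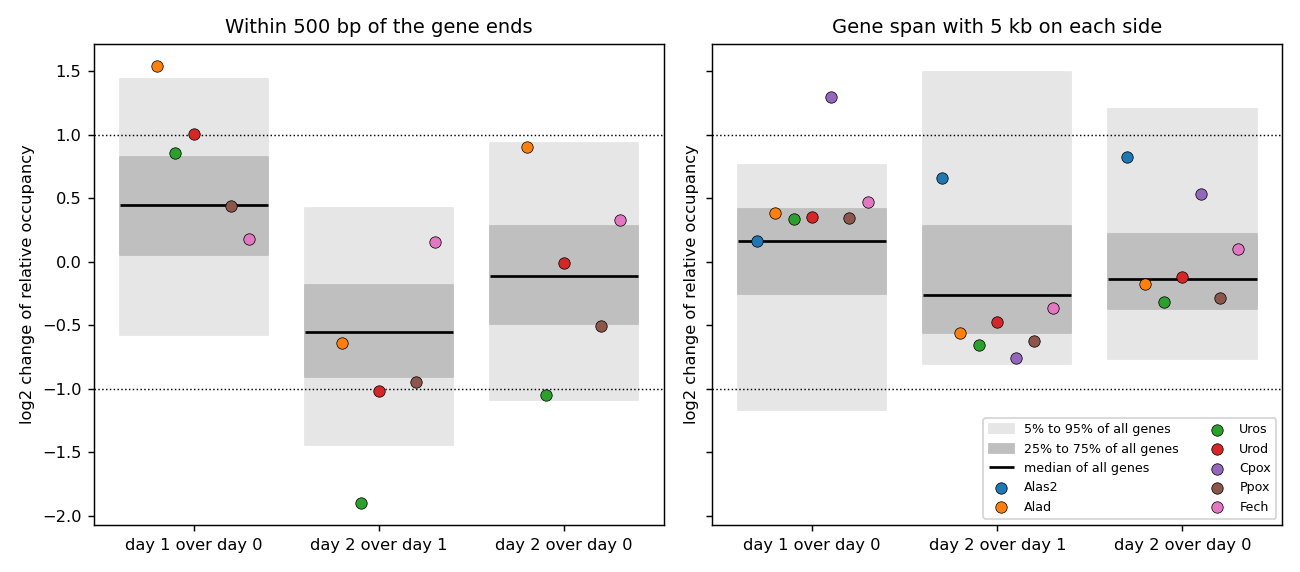
Log2 change of relative occupancy (y axis) for each pair of days (x axis) within 500 bp of the gene ends (left) and over the spans (right). Points are the enzyme genes holding 3 or more positions every day. Grey bands hold the middle 50% and 90% of all genes meeting that minimum. Dotted lines mark a change of 2 times. For day 1 over day 0, Cpox over the span and Alad at the gene ends lay above the 90% band. Uros lay below it at the gene ends for day 2 over day 1.

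Of the 556 day 0 positions in the 7 spans, 27 (4.86%) had a centre within 20 bp on both later days, against 3.84% over the spans of all genes. The shares were 2.16% against 1.32% within 10 bp and 15.1% against 11.6% within 40 bp. The 27 were 8 of 66 at Urod, 7 of 100 at Alad, 5 of 132 at Uros, 3 of 78 at Ppox, 3 of 119 at Fech, 1 of 35 at Cpox and 0 of 26 at Alas2. The kept centre of Cpox was the first inside the gene, at 173 bp on day 0, and the kept centres of Ppox included the one 285 bp before the start. Of the day 0 positions 21.2% had a centre on day 1 (exact Clopper-Pearson 95% interval 17.9 to 24.9%), against 16.1% over the spans of all genes. On day 2 19.6% had one (16.4 to 23.2%), against 17.6%. The intervals treat pooled positions as independent and leave out the spread between genes. By gene the share with day 1 was 7.69% at Alas2, 14.3% at Cpox and at Fech and 19.7% at Uros. It was 24% at Alad, 25.6% at Ppox and 36.4% at Urod. Of the day 1 positions 19.8% were shared with day 0 and 22.7% with day 2, against 18.7% and 19.9%. Of the day 2 positions 17.8% were shared with day 0 and 22.1% with day 1, against 16.1% and 15.5%. The density of positions differed along with the share, with 0% of 48 day 2 centres having a day 0 centre at Alas2 (1.45 positions per kb) and 37.5% of 72 at Ppox (5.07 per kb), and the part of density in it was not tested.

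Other iron and heme genes were read near the gene ends in the same way. The list held 32 genes of heme and iron transport, iron-sulfur assembly, heme breakdown and heme-linked control, and 26 passed the minimum of 3 positions. For day 1 over day 0, 2 of 26 were higher, Hmox2, a heme oxygenase, with a log2 change of 1.09, and Bach1, a heme-binding repressor, with 1.02, and 0 were lower, where 16.2% of all genes were higher and 1.30% lower. For day 2 over day 1, 8 of 26 were lower and 0 higher, where 19.8% of all genes were lower and 0.596% higher. With windows of 1000 bp 2 were lower. For day 2 over day 0, 0 of 26 passed the rule, where 6.51% of all genes were lower and 4.23% higher. Among the 8, Tfrc, the transferrin receptor that brings in iron, had 2.92, 5.16 and 2.45 on days 0, 1 and 2, and the mitochondrial transporter Abcb10 had 3.38, 4.75 and 2.10. The other 6 were Bach1, Clpx, Flvcr1, Glrx5, Slc25a28 and Snx3, with log2 changes between -1.46 and -1.12. Over the spans 0 of 32 passed the rule in any comparison, where the share of all genes in 1 direction was between 0.643% and 10.4%. In the order of comparison above, the median log2 change of the 32 spans was 0.39, -0.57 and -0.22. That of the 7 enzyme spans was 0.36, -0.56 and -0.12, and that of all genes 0.16, -0.26 and -0.14. The median log2 change of the 26 was 0.53 for day 1 over day 0, -0.72 for day 2 over day 1 and -0.22 for day 2 over day 0, against 0.45, -0.56 and -0.11 for all genes. Alas1, the form of the first enzyme used by most tissues, had 3.91, 6.47 and 3.64, where Alas2 had 1.08, 0.283 and 0. Alas1 lies on chromosome 9 and Alas2 on X, where the gene-end median of all genes was 0.254, 0.283 and 0.410. Alas2 also failed the minimum of 3 positions, and the part of the chromosome in the difference was not tested.

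Genes with the most similar levels were found over the 6 log2 values of the spans and gene ends on the 3 days, 1 library each. Among 14093 genes the nearest was Wbp11 for Alad (distance 0.25), Flnc for Uros (0.32), Vegfa for Urod (0.18), Tusc2 for Ppox (0.21) and Mpzl3 for Fech (0.20). The median distance from the enzyme genes to all others was between 1.63 and 2.28. The nearest gene is the smallest of these distances and lies below their median by construction. Nearest distances of other genes were not computed, so no close likeness is read from these pairs.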

How the data were processed

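Nucleosome positions from micrococcal nuclease sequencing were analysed in 3 libraries, 1 per day. The authors deposited 1 position list per library. Bowtie2 and bedtools were used and the build was mm10, per the submitters' processing notes, while versions, the position caller and read totals are not stated in what was used here. The deposited summit value is a coverage signal, smoothed and scaled by the authors, the fuzziness score as deposited has no stated unit, and the p-value columns deposited by the authors were not used. Depth is unknown, and the step of each library is an inference from its values, with a tolerance of 0.01 for a value called on a step.

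Genes came from a RefSeq table of GRCm38.p6, leaving out genes below 3 Mb on their chromosome. Starts, strands and promoter letters came from a RefSeq promoter table of the same assembly, which matched 6 of the 7 genes. For Fech both ends are described. Positions were assigned by their centre to the gene span with 5 kb on each side, or to the 500 bp outside and inside of either gene end, and summed summit values per bp were divided by the autosome mean. A change of 2 times, read where a gene held 3 or more positions every day, was a size rule and not a test. Medians, ranks and shares of changes given for all genes cover the genes meeting the same minimum. Centres within 20 bp were called shared, and a base within 70 bp of a centre was called inside a position. Intervals are exact, treat positions as independent and cover counting error only. The members, lists and windows were chosen with earlier results of these data known. The rule for named genes took all 7 members, list genes past the size rule for day 2 over day 0 (0 genes), neighbours whose windows overlap, and for each member that passed the minimum the 1 gene at the smallest Euclidean distance, leaving out unnamed models. List genes past the rule in single steps, and Alas1, were named after their values were seen. Alternatives were other windows, flanks, minimums, tolerances and scalings, each position counted once, and summit values of 10 or more. Leaving out values off the coverage step was chosen after seeing the data. The occupancy script was tested on simulated lists. Python 3.11.15, numpy 2.4.6, pandas 2.3.3, scipy 1.17.1 and matplotlib 3.10.9 were used.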

Additional observations from a re-analysis of the deposited data

How the results depend on the processing

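Each choice was changed alone. Of the single-gene changes 226 values kept their side of the size rule, 13 left it and 10 passed it. The sign turned in 21 values of 13 changes, all below the rule with a size of at most 0.66, among them Fech near the ends (0.15 for day 2 over day 1, but -0.31 with 1000 bp windows), Ppox near the ends (-0.51 for day 2 over day 0, but 0.16 with summit values of 10 or more) and the Alas2 span (0.66 for day 2 over day 1, but -0.30 with own-chromosome scaling). The Cpox span call for day 1 over day 0 was kept under all alternatives run.

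Enzyme genes 2 times higher near the ends on day 1 than on day 0 numbered 2. They numbered 1 with 250 bp or 1000 bp windows, each position counted once, a minimum of 5 positions or scaling to the median of all genes. They numbered 0 with windows of 200 bp outside to 50 bp inside or summit values of 10 or more. With a minimum of 1 position they numbered 3, with Cpox added. Only genes meeting the minimum every day are counted. With 200 bp outside to 50 bp inside no enzyme gene held 3 or more positions every day. Only Urod did with 250 bp windows, and only Ppox with summit values of 10 or more, so the others were not read there. Those lower on day 2 than on day 1 numbered 2, but 1 when scaled to the median of all genes. Under the same limit they numbered 0 with 250 bp windows, 200 bp outside to 50 bp inside or summit values of 10 or more. They numbered 3 with 1000 bp windows or without positions off the coverage step. The 1 lower on day 2 than on day 0 became 0 with windows of 250 bp, 1000 bp or 200 bp outside to 50 bp inside, each position counted once, scaling to the own chromosome or summit values of 10 or more. In 3 of these settings Uros held too few positions to be read, namely windows of 250 bp, 200 bp outside to 50 bp inside, and summit values of 10 or more. Higher on day 2 than on day 0 went 1 gene, against 0, with a minimum of 1 position (Cpox, log2 change 1.85) or own-chromosome scaling (Alad, 1.02). The cause of the other differences was not tested.

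The members' median over that of all genes near the ends became 0 on day 0 with 200 bp outside to 50 bp inside (1.04 otherwise), 0.833 on day 0 with each position counted once and 0.875 on day 2 with 250 bp windows. With summit values of 10 or more it was 4.06 on day 1 and 0 on day 2 (1.69 and 1.13 otherwise). Over the spans it was 1.39 and 1.67 on days 0 and 1 with each position counted once (1.56 and 1.90 otherwise), 1.66 on day 2 with own-chromosome scaling (1.37 otherwise), and 2.81, 3.38 and 2.63 on days 0, 1 and 2 with summit values of 10 or more. With such values 2 spans were higher on day 1 than on day 0, 1 lower on day 2 than on day 1 and 2 higher on day 2 than on day 0, and the median stretch across the start of 6 genes was 1977.5, 2360 and 3782.5 bp on days 0, 1 and 2 (809, 602.5 and 671.5 bp otherwise).

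Shared positions of day 0 on days 1 and 2, day 1 on days 0 and 2 and day 2 on days 0 and 1 were 13.8%, 12.1%, 12.9%, 12.9%, 10.97% and 12.6% within 10 bp, and 38.3%, 37.1%, 35.8%, 40.3%, 33.7% and 39.3% within 40 bp. With summit values of 10 or more they were 10.8%, 15.5%, 10.5% and 11.2% for the first 4 pairs and 13.2% for day 2 on day 1.

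In the list of iron and heme genes, a minimum of 1 position gave 5 higher on day 1 than on day 0 and 1 lower, 1 higher on day 2 than on day 1 and 3 higher on day 2 than on day 0. Windows of 250 bp gave 1 higher on day 1 than on day 0, 5 lower on day 2 than on day 1 and 1 lower on day 2 than on day 0. Those lower on day 2 than on day 1 were 2 with windows of 1000 bp and 0 over the spans, where 0 were higher on day 1 than on day 0.

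No paired analysis was possible because each day has 1 library. Read totals are unknown and most gene-end windows hold few positions, so changes of the enzyme genes there rest on counts of 10 or fewer.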

Other observations

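At Ppox 30.8%, 38.4% and 23.6% of the summit values on days 0, 1 and 2 lay more than 0.01 off the coverage step, against 1.44%, 2.48% and 1.25% in the libraries. Among its summit values of 10 or more the shares were 46.7%, 54.9% and 32.5%, against 6.81%, 18.3% and 8.71%. Urod had 7.58%, 11.6% and 7.35%, and Alas2 0 of 26, 0 of 24 and 0 of 48. Without such positions, a setting chosen after seeing the data, the change of Ppox near its ends was -1.82 for day 2 over day 1 and -1.48 for day 2 over day 0 on the log2 scale, and that of Uros for day 2 over day 0 was -0.58.

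The mean fuzziness score, the authors' measure of read spread around a centre, was 52.1, 55.1 and 52.5 over the positions of the 7 genes. The library medians were 51.0, 54.5 and 51.0. Ppox had 55.1, 56.9 and 54.7, and Alas2 47.5, 51.9 and 48.5.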
